A study of Rattus norvegicus with 35 samples.

Results

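Matricellular proteins and matrix crosslinkers were followed in the lungs of rats that had received carbon nanotubes. The set held 10 genes chosen by name, namely Thbs1, Thbs2, Tnn, Tnc, Postn, Fn1, Sparc, Lox, Loxl2 and Acta2, of 34766 gene names on the array. All 10 passed the filter on dim probes and were among the 24468 genes tested. They were measured by 15 of the 45598 probes.

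Gene expression was measured on 1-colour Agilent arrays, 1 array per animal, in 35 female Sprague Dawley rats, from RNA of the lung's accessory lobe. Rats were 12 weeks old when instillations into the trachea began, received 4 weekly instillations and were examined 3 days after exposure. Among rats heterozygous for p53 (called GMO in the labels, p53het here), 6 received Mitsui-7, 5 received NM-403 and 6 received the Pluronic vehicle alone. Among wild-type (WT) rats, 6 received Mitsui-7, 6 received NM-403 and 6 received vehicle alone. Mitsui-7 and NM-403 are both multi-walled carbon nanotubes, and each was given at 0.25 mg per rat; the labels do not say whether that is per instillation or in total.

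Matricellular proteins are secreted into the extracellular matrix, where they act on cell receptors, growth factors and proteases more than as load-bearing scaffold. In adult lung many of them are scarce until injury, when fibroblasts, macrophages and other cells make them during repair. Lysyl oxidases then crosslink collagen and elastin, and alpha smooth muscle actin marks smooth muscle and the contractile fibroblasts called myofibroblasts.

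The sequences below are those of some of the probes that read Tnc, Lox and Loxl2. Both Tnc probes are shown because results are given for each, and the level of Tnc as a gene was read by the first alone. The Lox and Loxl2 probes are shown because Lox was read by 4 probes that did not all pass the test. The level of Lox as a gene was read by another probe, A_44_P1152134, and the Tnn probe is not shown. Each probe is 60 bases long and has at least 1 forward reading frame without a stop. Their place in the transcript was not checked, and no part is in capitals.
Tnc, probe standing for the gene (A_44_P1090315): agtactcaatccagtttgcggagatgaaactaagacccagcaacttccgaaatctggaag
Tnc, second probe (A_43_P15638): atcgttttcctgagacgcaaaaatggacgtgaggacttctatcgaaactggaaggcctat
Lox, probe A_64_P038414: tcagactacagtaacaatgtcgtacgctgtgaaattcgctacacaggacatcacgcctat
Loxl2, probe A_44_P105225: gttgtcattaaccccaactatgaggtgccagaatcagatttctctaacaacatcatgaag

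Promoters of 6 of the 10 genes were found by symbol in the RefSeq table of rat promoters (build GRCr8), each running from 250 bases before to 50 bases after the gene's start. The others, Thbs2, Fn1, Lox and Loxl2, are named only. The promoters of Tnn, Tnc and Acta2 are shown because Tnn was called with both nanotubes, Tnc only between them and Acta2 in no comparison. Capitals mark the SMAD element CAGAC and the letters TATAAA of a TATA box, each on either strand. Other spellings of a TATA box were not searched. CAGAC lay in 5 of the 6 promoters, against 50.1% of all 33469 promoters of the same length. TATAAA lay in 2 of 6, against 14.2%. The AP-1 element TGANTCA, found in 7.33% of all promoters, had no match on either strand in the 6. These matches are descriptions of the letters in these windows only.
Tnn promoter, chr13:74919740-74920039, minus strand: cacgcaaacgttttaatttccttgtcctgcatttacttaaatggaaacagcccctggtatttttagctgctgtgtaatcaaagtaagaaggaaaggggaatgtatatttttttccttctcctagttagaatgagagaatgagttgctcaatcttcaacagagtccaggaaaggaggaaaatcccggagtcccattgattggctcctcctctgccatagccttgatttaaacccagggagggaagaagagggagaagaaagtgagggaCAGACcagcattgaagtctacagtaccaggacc
Tnc promoter, chr5:82476082-82476381, minus strand: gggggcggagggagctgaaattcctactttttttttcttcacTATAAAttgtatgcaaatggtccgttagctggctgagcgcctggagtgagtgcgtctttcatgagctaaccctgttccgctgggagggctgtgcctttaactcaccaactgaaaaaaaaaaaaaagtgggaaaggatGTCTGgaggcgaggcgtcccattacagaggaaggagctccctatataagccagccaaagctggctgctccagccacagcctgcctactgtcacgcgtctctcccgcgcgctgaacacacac
Acta2 promoter, chr1:241172454-241172753, minus strand: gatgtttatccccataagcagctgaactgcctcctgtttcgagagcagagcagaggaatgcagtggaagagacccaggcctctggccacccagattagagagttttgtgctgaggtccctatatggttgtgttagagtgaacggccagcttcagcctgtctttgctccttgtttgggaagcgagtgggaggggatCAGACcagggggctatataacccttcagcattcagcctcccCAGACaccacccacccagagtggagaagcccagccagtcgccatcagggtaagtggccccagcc
In Tnn the single CAGAC began 17 bases after the start, whereas Tnc had 1 on the other strand at -71 and Acta2 had 2, at -55 and -14. The TATAAA of Tnc began at -208, and whether it serves as a TATA box was not tested.

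On each array 66.0% to 86.3% of spots (median 71.4%) were well above background, and no spot of a gene was saturated. The arrays lay on 5 slides, each scanned on 1 of 3 days, so a block for slide also covers the day. Every group was spread over 4 or 5 slides. Levels below are log2 signal relative to the array's own 75th percentile, differences are in log2 units ± the standard error (SE) of the fit, and a gene is called where its adjusted p was under 0.05. Levels of different probes are not compared with each other.

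**Figure D1:**
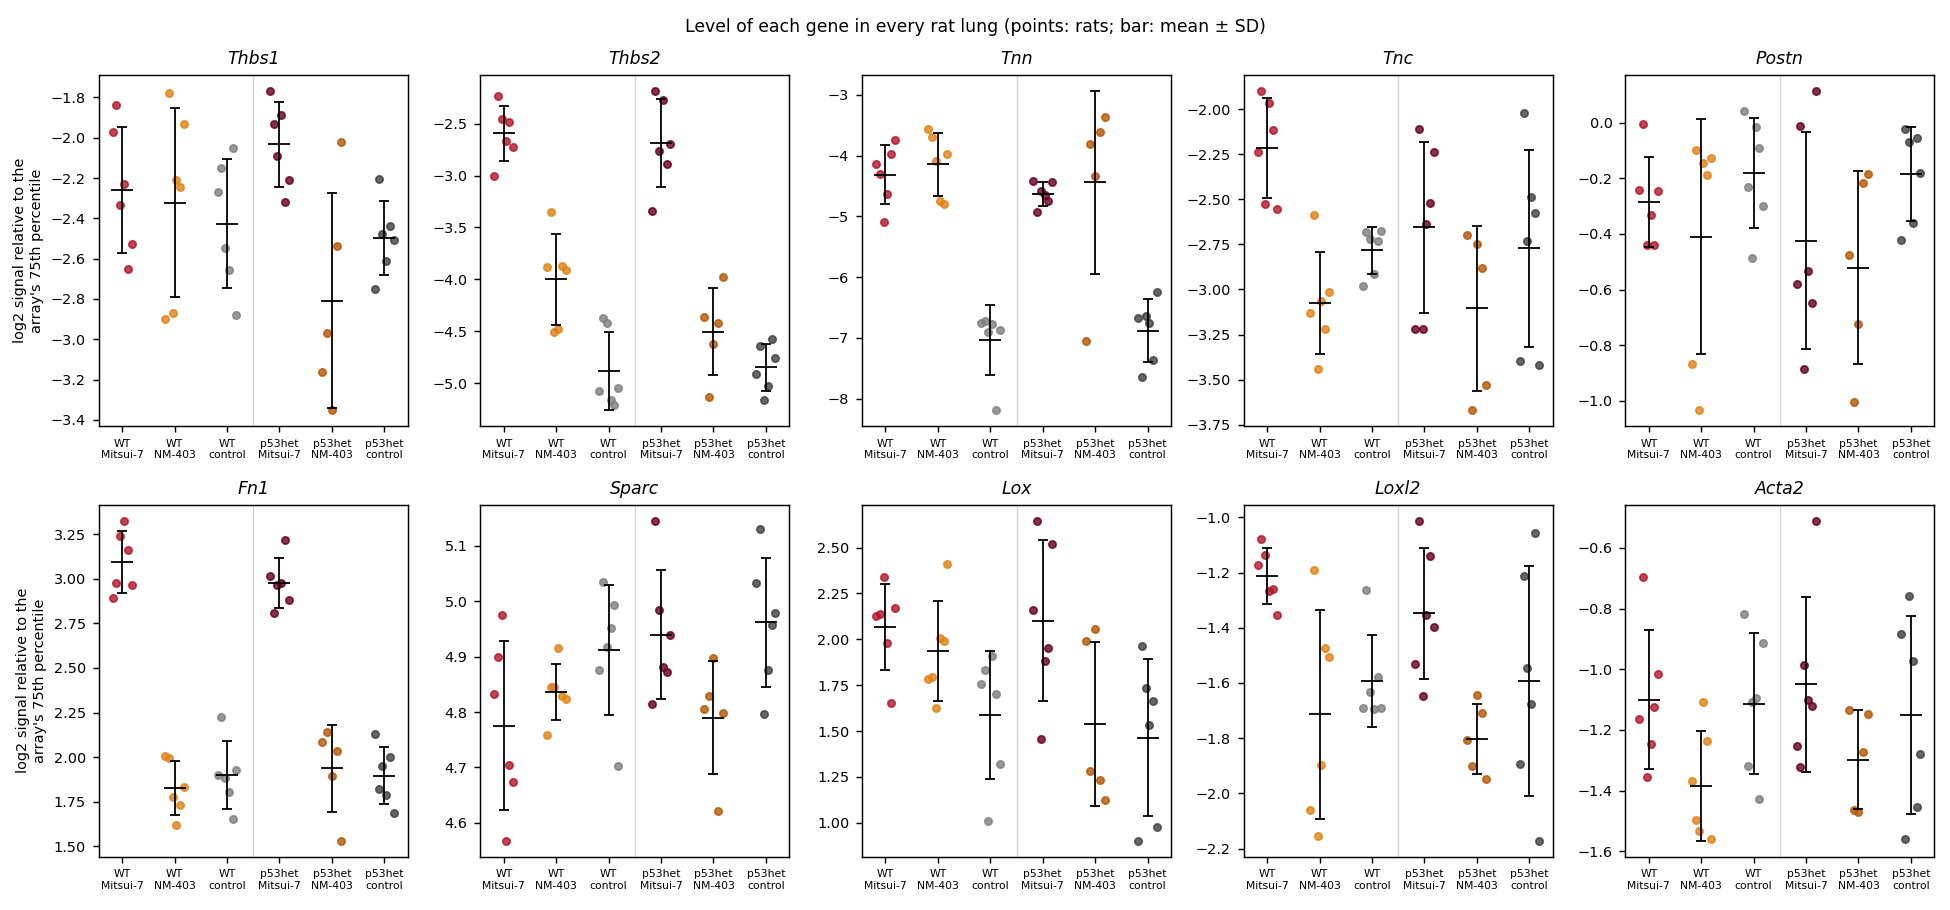
Level of each of the 10 genes (y axis, log2 signal relative to the array's 75th percentile) in every rat, by group, with points for rats and a bar with whiskers for mean ± SD. Thbs2 and Fn1 sit high in both Mitsui-7 groups, whereas Tnn sits high in all 4 nanotube groups except for 1 p53het NM-403 rat at -7.05.

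Thbs2, Tnn and Fn1 rose after Mitsui-7 in both genotypes. After NM-403, Tnn rose in both genotypes and Thbs2 rose in WT rats. In WT rats given Mitsui-7, 3 of the 10 genes were called, all higher, while 13.7% of all genes tested were called in either direction, 8.95% higher and 4.8% lower. In p53het rats given Mitsui-7, 4 of 10 were called, all higher, against 11.7% of all genes (5.16% higher and 6.49% lower). After NM-403, 2 of 10 were called in WT rats, against 3.13% of all genes (2.28% higher and 0.854% lower), and 1 of 10 in p53het rats, against 1.52% (1.28% higher and 0.241% lower). All 10 calls were higher. The median difference of the 10 genes was 0.43 in WT Mitsui-7 lungs, where that of all genes was 0.04. It was 0.36 in p53het Mitsui-7 lungs (all genes, -0.03), -0.07 in WT NM-403 lungs (all genes, -0.00) and -0.16 in p53het NM-403 lungs (all genes, -0.07). The comparisons of one genotype share their control rats. In bulk lung, a change in the number of cells of a type and a change in RNA per cell cannot be told apart.

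Thbs2 encodes thrombospondin-2, a secreted inhibitor of angiogenesis that also shapes collagen fibrils. Its level ran from -3.01 to -2.23 (median -2.58) in WT Mitsui-7 lungs, from -4.51 to -3.35 (median -3.89) in WT NM-403 lungs and from -5.21 to -4.38 (median -5.06) in WT control lungs. In p53het rats it ran from -3.34 to -2.18 (median -2.73) with Mitsui-7 and from -5.16 to -4.58 (median -4.84) with vehicle. The 5 p53het NM-403 rats had -5.13, -4.62, -4.42, -4.36 and -3.98. Every Mitsui-7 rat lay above every control of its genotype and above every NM-403 rat of its genotype. With NM-403, 4 of 6 WT rats and 3 of 5 p53het rats lay above all their controls, so those groups overlapped.

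Thbs2 rose by 2.29 ± 0.21 with Mitsui-7 in WT lungs, a fold of 4.88 (adjusted p = 1.39e-09). In p53het lungs it rose by 2.16 ± 0.21, a fold of 4.46 (adjusted p = 7.01e-09). With NM-403 it rose by 0.88 ± 0.21 in WT lungs (fold 1.84, adjusted p = 0.0120), and fitting the 2 WT groups alone ended that call (adjusted p = 0.0660). In p53het lungs the NM-403 difference was 0.34 (95% confidence interval, CI, -0.10 to 0.79; adjusted p = 0.577). The genotypes' NM-403 differences themselves differed by -0.54 (95% CI -1.15 to 0.07), which did not pass the test (adjusted p = 0.985). Under another background correction (normexp) the Mitsui-7 differences were smaller, 1.47 in WT and 1.33 in p53het lungs, and were still called. Within slides that held both groups the Mitsui-7 difference was 2.06 to 2.84 in WT lungs (4 slides) and 2.01 to 2.39 in p53het lungs (5 slides). The NM-403 difference in WT lungs ran from -0.09 to 1.44 and was positive on 4 of 5 slides.

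Thbs1, the paralog that also activates latent TGF-beta, was called in none of the comparisons. Its level ran from -2.65 to -1.84 (median -2.28) in WT Mitsui-7 lungs, from -2.90 to -1.78 (median -2.23) in WT NM-403 lungs and from -2.88 to -2.05 (median -2.41) in WT control lungs, and these ranges overlapped. Its p53het levels ran from -2.32 to -1.77 (median -2.01) with Mitsui-7 and from -2.75 to -2.20 (median -2.49) with vehicle, and the 5 NM-403 rats had -3.35, -3.16, -2.97, -2.54 and -2.02; these groups overlapped. The Mitsui-7 difference was 0.17 in WT lungs (95% CI -0.24 to 0.58) and 0.46 in p53het lungs (95% CI 0.06 to 0.87; adjusted p = 0.138). The p53het difference was called with only the 2 groups in the fit (adjusted p = 0.0405). Its brighter and dimmer probes correlated at r = 0.75 over the 35 arrays.

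Tnn encodes tenascin-N, also called tenascin-W, a member of the tenascin family found in bone, in stem cell niches and in the stroma of tumours. Its level ran from -5.09 to -3.74 (median -4.22) in WT Mitsui-7 lungs, from -4.80 to -3.56 (median -4.03) in WT NM-403 lungs and from -8.19 to -6.72 (median -6.82) in WT control lungs. In p53het lungs it ran from -4.93 to -4.42 (median -4.62) with Mitsui-7 and from -7.64 to -6.24 (median -6.71) with vehicle. The 5 p53het NM-403 rats had -7.05, -4.33, -3.81, -3.61 and -3.37. All rats of the other 3 nanotube groups, and 4 of these 5, lay above all controls of their genotype, while 1 rat lay among the controls.

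Tnn rose by 2.72 ± 0.40 with Mitsui-7 in WT lungs (fold 6.60, adjusted p = 9.86e-06) and by 2.26 ± 0.40 in p53het lungs (fold 4.78, adjusted p = 0.000202). With NM-403 it rose by 2.89 ± 0.40 in WT lungs (fold 7.43, adjusted p = 3.10e-05) and by 2.45 ± 0.42 in p53het lungs (fold 5.46, adjusted p = 0.000791). It was the only one of the 10 genes called in all 4 comparisons with controls. The control signal was dim: Tnn was well above background in 5 of 6 WT and 4 of 6 p53het control rats. Normexp correction, which adds an offset of 50 before the log, gave differences of 1.03 and 0.69 with Mitsui-7 and 1.13 and 0.84 with NM-403 (WT and p53het in each pair), all still called. Within slides the difference was 2.14 to 3.00 and 1.87 to 2.98 with Mitsui-7 in WT and p53het lungs, and 1.99 to 3.76 with NM-403 in WT lungs. With NM-403 in p53het lungs it ran from -0.30 to 4.03 and was positive on 3 of 4 slides.

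The p53het NM-403 rat with low Tnn (replicate 1) changed the size of the p53het value. Without that rat the difference was 3.10 (adjusted p = 1.62e-07), and with only the p53het NM-403 and p53het control arrays in the fit the call was lost (adjusted p = 0.120). The mean level above controls of the 558 genes that rose with NM-403 in WT rats was 0.62 in that rat, between 0.65 and 0.94 in the other 4 p53het NM-403 rats, and between -0.18 and 0.12 in p53het controls. Its value was thus the lowest of its group. Leaving that rat out also raised the number of all genes called with NM-403 in p53het lungs from 372 to 604. The Tnn probe was not well above background in that rat.

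**Figure D2:**
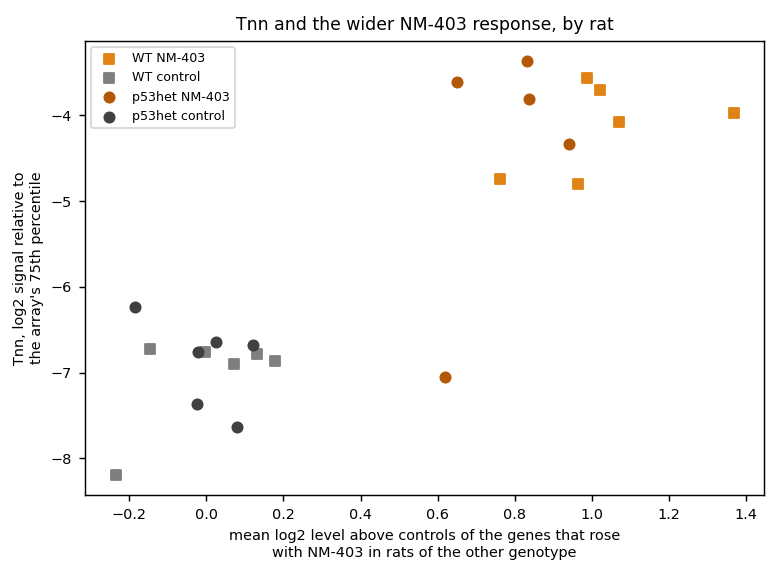
Tnn level (y axis, log2 signal relative to the array's 75th percentile) against the mean log2 level above controls of genes called higher with NM-403 in the other genotype (x axis), 1 point per rat. One p53het NM-403 rat is at 0.62 on the x axis, the lowest of its group, where the other 4 run from 0.65 to 0.94. On the y axis that rat is at -7.05, among the controls.

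Tnc encodes tenascin-C, the family member that is the classical marker of wound matrix. On the probe standing for the gene its level ran from -2.56 to -1.90 (median -2.18) in WT Mitsui-7 lungs, from -3.44 to -2.59 (median -3.10) in WT NM-403 lungs and from -2.98 to -2.68 (median -2.73) in WT control lungs. In p53het lungs the ranges overlapped, from -3.22 to -2.11 with Mitsui-7 and from -3.42 to -2.02 with vehicle, and the 5 NM-403 rats had -3.67, -3.53, -2.88, -2.75 and -2.70. All 6 WT Mitsui-7 rats lay above all WT controls, whereas 5 of 6 WT NM-403 rats lay below all of them and 1 lay above all of them. Neither difference passed the test: it was 0.57 ± 0.22 with Mitsui-7 (adjusted p = 0.0812) and -0.29 ± 0.22 with NM-403 (adjusted p = 0.618). The Mitsui-7 difference was called with both probes averaged (adjusted p = 0.0153), with slide as a random block (0.0469) and with only the 2 groups in the fit (0.0138). The 2 Tnc probes shown above correlated at r = 0.41, and the dimmer one gave 0.71 with Mitsui-7 (adjusted p = 0.0658).

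Fn1 encodes fibronectin, the adhesive glycoprotein on which provisional matrix is laid. Its level ran from 2.89 to 3.33 (median 3.07) in WT Mitsui-7 lungs, from 1.62 to 2.00 (median 1.80) in WT NM-403 lungs and from 1.65 to 2.23 (median 1.89) in WT control lungs. In p53het lungs it ran from 2.81 to 3.22 (median 2.97) with Mitsui-7 and from 1.69 to 2.13 (median 1.88) with vehicle. The 5 p53het NM-403 rats had 1.53, 1.89, 2.03, 2.09 and 2.14. No Mitsui-7 rat overlapped any control or any NM-403 rat, and NM-403 rats overlapped controls in both genotypes.

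Fn1 rose by 1.20 ± 0.11 with Mitsui-7 in WT lungs (fold 2.29, adjusted p = 1.00e-09) and by 1.08 ± 0.11 in p53het lungs (fold 2.12, adjusted p = 1.11e-08). With NM-403 the difference was -0.07 in WT lungs (95% CI -0.29 to 0.14; adjusted p = 0.843) and 0.04 in p53het lungs (95% CI -0.19 to 0.27; adjusted p = 0.926). The Mitsui-7 differences stayed between 1.06 and 1.20 over all 12 other settings and were called in each. Within slides they were 1.07 to 1.52 in WT lungs and 0.80 to 1.27 in p53het lungs.

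Periostin (Postn) and Sparc, which binds collagen and tunes fibril assembly, were called in no comparison. Postn medians were -0.29 in WT Mitsui-7, -0.17 in WT NM-403 and -0.16 in WT control lungs, and -0.56 in p53het Mitsui-7, -0.48 in p53het NM-403 and -0.12 in p53het control lungs. The 4 Postn differences ran from -0.34 to -0.10, and the widest 95% CI reached from -0.70 to 0.03. Sparc medians ran only from 4.77 in WT Mitsui-7 to 4.97 in p53het control lungs. Its 4 differences ran from -0.17 to -0.02, and the largest, in p53het NM-403 lungs, had a 95% CI of -0.33 to -0.01 and an adjusted p of 0.377.

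**Figure D3:**
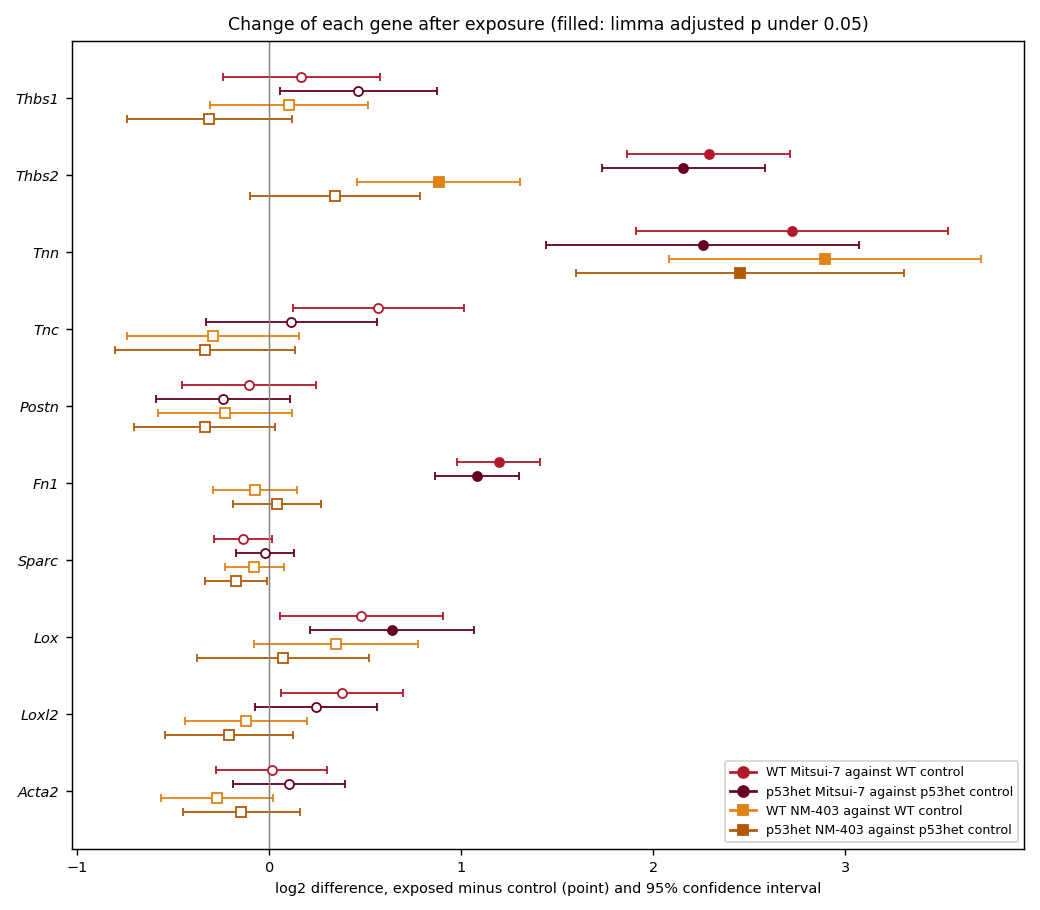
Log2 difference of each gene, exposed minus control (points), with its 95% confidence interval (bars), for the 4 exposure comparisons; filled points passed an adjusted p of 0.05. Thbs2 and Fn1 are filled and far from 0 with Mitsui-7, Tnn is filled in all 4, and Postn, Sparc and Acta2 are open in all 4.

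Lox encodes lysyl oxidase, which crosslinks collagen and elastin. On the probe standing for the gene its level ran from 1.65 to 2.34 (median 2.13) in WT Mitsui-7 lungs and from 1.01 to 1.91 (median 1.73) in WT control lungs, with 5 of 6 Mitsui-7 rats above all controls. In p53het lungs it ran from 1.46 to 2.65 (median 2.06) with Mitsui-7 and from 0.90 to 1.96 (median 1.60) with vehicle, with 3 of 6 above all controls. With NM-403 it ran from 1.62 to 2.41 (median 1.89) in WT lungs, and the 5 p53het rats had 1.12, 1.23, 1.28, 1.99 and 2.05; both groups overlapped their controls. The difference was 0.48 ± 0.21 in WT Mitsui-7 lungs (adjusted p = 0.128) and 0.64 ± 0.21 in p53het Mitsui-7 lungs (fold 1.56, adjusted p = 0.0416). The WT difference was called with all probes averaged (0.43, adjusted p = 0.00898) and with array weights (0.50, adjusted p = 0.0397). This p53het call was lost in 7 of 12 fits that each left out 1 rat (control replicates 1, 4 and 6, Mitsui-7 replicates 1, 2, 5 and 6), with adjusted p up to 0.115. It was also lost with no filter on dim probes (0.0641) and with only the 2 groups in the fit (0.135).

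The other Lox probes were fitted with all 32321 probes as features. Probe A_64_P038414, shown above, gave 0.46 ± 0.11 in WT Mitsui-7 lungs (adjusted p = 0.00579) and 0.44 ± 0.11 in p53het Mitsui-7 lungs (adjusted p = 0.00887), with all 6 rats above all controls in each. Probe A_44_P1082099 gave 0.46 ± 0.13 (adjusted p = 0.0128) and 0.44 ± 0.13 (adjusted p = 0.0200). Probe A_42_P585695 gave 0.33 ± 0.13 (adjusted p = 0.0812) and 0.13 ± 0.13 (adjusted p = 0.605). That probe correlated at r = 0.12 to 0.59 with the other 3, which correlated with each other at r = 0.77 to 0.93. All 4 probes were higher on average with Mitsui-7 in both genotypes, and they disagreed on which differences passed the test. Within slides the difference on the probe standing for the gene was positive on 4 of 4 slides in WT lungs (0.07 to 0.59) and on 4 of 5 in p53het lungs (-0.08 to 0.98).

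**Figure D4:**
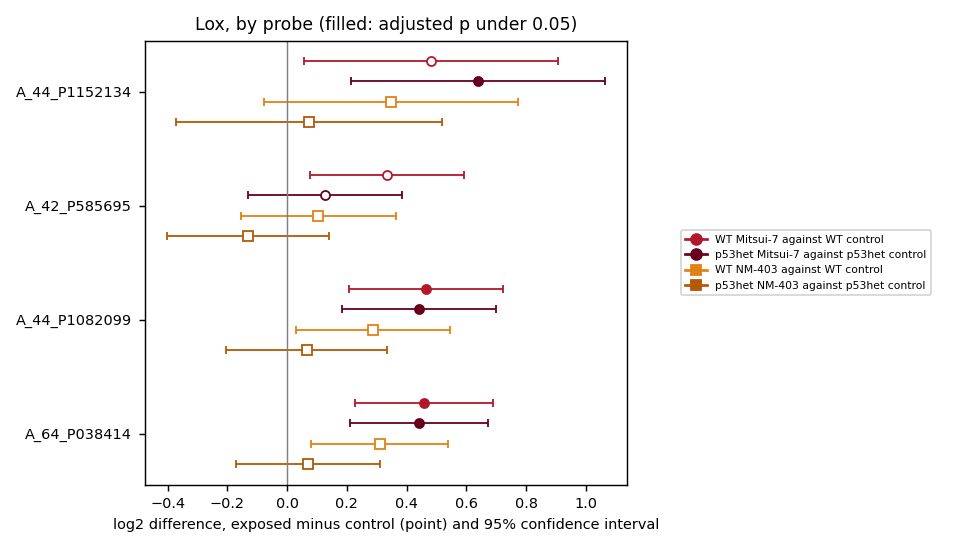
Log2 difference of each Lox probe (points), exposed minus control, with its 95% confidence interval (bars); filled points passed an adjusted p of 0.05. With Mitsui-7, A_44_P1082099 and A_64_P038414 are filled in both genotypes, A_44_P1152134 in p53het lungs, and A_42_P585695 in neither.

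Loxl2, a lysyl oxidase family member that crosslinks collagen IV, was not called in any comparison. Its level ran from -1.35 to -1.08 (median -1.22) in WT Mitsui-7 lungs, from -2.15 to -1.19 (median -1.70) in WT NM-403 lungs and from -1.69 to -1.26 (median -1.66) in WT control lungs. The p53het levels ran from -1.65 to -1.01 (median -1.38) with Mitsui-7 and from -2.17 to -1.06 (median -1.61) with vehicle, and the 5 NM-403 rats had -1.95, -1.90, -1.81, -1.71 and -1.64; these groups overlapped. The WT Mitsui-7 difference from controls was 0.38 ± 0.16 (adjusted p = 0.103) and 4 of 6 rats lay above all controls. It was called with slide as a fixed block (0.32, adjusted p = 0.0353), with slide as a random block (0.33, adjusted p = 0.0365) and with only the 2 groups in the fit (adjusted p = 0.0200). Its values within 4 slides were all positive, from 0.27 to 0.61.

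Acta2, alpha smooth muscle actin, was called in no comparison. Its level ran from -1.36 to -0.70 (median -1.14) in WT Mitsui-7 lungs, from -1.56 to -1.11 (median -1.43) in WT NM-403 lungs and from -1.43 to -0.82 (median -1.10) in WT control lungs, all overlapping. Among p53het lungs it ran from -1.32 to -0.51 (median -1.11) with Mitsui-7 and from -1.56 to -0.76 (median -1.12) with vehicle, and the 5 NM-403 rats had -1.47, -1.46, -1.27, -1.15 and -1.13; these groups overlapped. The Mitsui-7 difference was 0.01 in WT lungs (95% CI -0.28 to 0.30) and 0.10 in p53het lungs (95% CI -0.19 to 0.39). With NM-403 it was -0.27 in WT lungs (95% CI -0.56 to 0.02) and -0.15 in p53het lungs (95% CI -0.45 to 0.16). Only between the nanotubes in WT lungs, and only with slide as a fixed block, was it called (0.37, adjusted p = 0.0484). Of the 16 other contractile genes tested, 0 were called in 3 of the 4 comparisons and 1 was called in p53het Mitsui-7 lungs: Mylk, myosin light chain kinase, fell by 0.37 (adjusted p = 0.00866).

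Mitsui-7 was also set directly against NM-403. In WT lungs 3 of the 10 genes were called, all higher with Mitsui-7, against 3.47% of all genes (3% higher and 0.474% lower). Fn1 was higher by 1.27 ± 0.11 (adjusted p = 1.26e-09), Thbs2 by 1.41 ± 0.21 (adjusted p = 3.75e-05) and Tnc by 0.86 ± 0.22 (adjusted p = 0.0188), each in 6 of 6 Mitsui-7 rats above all 6 NM-403 rats. The Tnc call was lost without Mitsui-7 replicate 4 (adjusted p = 0.0529) or NM-403 replicate 3 (0.0539), and under normexp correction (0.0547). Within 4 slides it was positive, from 0.21 to 1.25. Its dimmer probe was called too, at 1.02 ± 0.26 (adjusted p = 0.0186).

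In p53het lungs 2 of 10 were called, against 1.35% of all genes (1.04% higher and 0.315% lower): Fn1 was higher by 1.04 ± 0.11 (adjusted p = 2.44e-07) and Thbs2 by 1.81 ± 0.22 (adjusted p = 2.00e-06). Tnn was not called between the nanotubes, with a Mitsui-7 minus NM-403 difference of -0.17 (95% CI -0.98 to 0.64) in WT and -0.19 (95% CI -1.05 to 0.66) in p53het lungs. Loxl2 was 0.50 ± 0.16 higher in WT Mitsui-7 lungs (adjusted p = 0.0716), and Thbs1 was 0.78 ± 0.21 higher in p53het Mitsui-7 lungs (adjusted p = 0.0593), neither past the test. The Thbs1 difference was called with array weights (adjusted p = 0.0446), with slide as a random block (0.0342) and without p53het NM-403 replicate 5 (0.00741). The Loxl2 difference was called with array weights (0.0389), with either slide block (0.0223 and 0.0213) and without WT NM-403 replicate 2 (0.0205). The median difference of the 10 genes was 0.21 in WT and 0.45 in p53het lungs, against 0.03 and 0.02 for all genes.

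No difference between the genotypes passed the test. Between p53het and WT controls 0 of 10 were called, and 0 of all 24468 genes (0%), with 482 at an unadjusted p under 0.05. The interactions of genotype with Mitsui-7 and with NM-403 likewise gave 0 calls of 24468 (0% each), with 819 and 410 genes at an unadjusted p under 0.05. None of the 10 genes was called in either. The counts at an unadjusted p, for the controls and for both interactions, were fewer than chance alone would give at that threshold. The Mitsui-7 interaction of Fn1 was -0.11 (95% CI -0.42 to 0.19) and of Thbs2 was -0.13 (95% CI -0.73 to 0.47).

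Other genes of the matrix were read from lists of related genes, whose counts stand beside the shares of all genes called in each direction given above. Of 23 other matricellular genes tested, 2 rose and 6 fell in WT Mitsui-7 lungs, 3 rose and 6 fell in p53het Mitsui-7 lungs, 1 fell in WT NM-403 lungs and 0 were called in p53het NM-403 lungs. Ccn4, a WNT-responsive secreted protein, rose by 2.22 in WT and 1.58 in p53het Mitsui-7 lungs, and Tgfbi, a TGF-beta-induced matrix protein, by 0.76 and 0.75. Ccn3 fell by 0.88, Vtn (vitronectin) fell by 0.85 and Tnxb (tenascin-X) fell by 0.79 in WT Mitsui-7 lungs. The list's median was -0.12 there, against 0.04 for all genes. Of 17 other crosslinking and collagen-modifying enzymes, 1 rose (Plod2, a collagen lysyl hydroxylase, by 0.58 and 0.40) and 1 fell (Pxdn, peroxidasin, by 0.23 and 0.24) in WT and p53het Mitsui-7 lungs, and 0 were called with NM-403. The enzymes' median was -0.15 in WT and -0.09 in p53het Mitsui-7 lungs.

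Of 24 genes of the TGF-beta and activin pathway, 5 rose and 4 fell in WT Mitsui-7 lungs, and 4 rose and 5 fell in p53het Mitsui-7 lungs. Inhba, the activin A subunit, rose by 2.41 and 2.12 in WT and p53het Mitsui-7 lungs, and Tgfbr1, a TGF-beta receptor, rose by 0.86 and 0.79. Eng (endoglin), an endothelial co-receptor, fell by 0.88 and 0.91 and Smad6, an inhibitory SMAD, fell by 0.84 and 0.94. The pathway's median difference was 0.02 in WT Mitsui-7 lungs, where that of all genes was 0.04. With NM-403, 1 of the 24 rose and 1 fell in WT lungs, and 0 were called in p53het lungs. The fall was that of Lrrc32, which anchors latent TGF-beta, by 0.49. Array median scaling moved the WT Mitsui-7 counts to 5 that rose and 6 that fell. Of 19 matrix receptors, 3 rose and 3 fell in WT Mitsui-7 lungs, and 5 rose and 3 fell in p53het Mitsui-7 lungs. Among them Itga4, Cd36 and Itgav rose by 0.69, 0.66 and 0.40 in WT Mitsui-7 lungs. Itga1, Itga9 and Itgb5 fell there by 0.71, 0.47 and 0.31, and in p53het Mitsui-7 lungs by 0.56, 0.28 and 0.45. Ddr1 rose by 1.00 in p53het Mitsui-7 lungs. Itgb8, which helps activate TGF-beta, rose by 0.89 in WT NM-403 and 0.90 in p53het Mitsui-7 lungs. With NM-403, 1 receptor rose and 3 fell in WT lungs and 0 were called in p53het lungs.

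**Figure D5:**
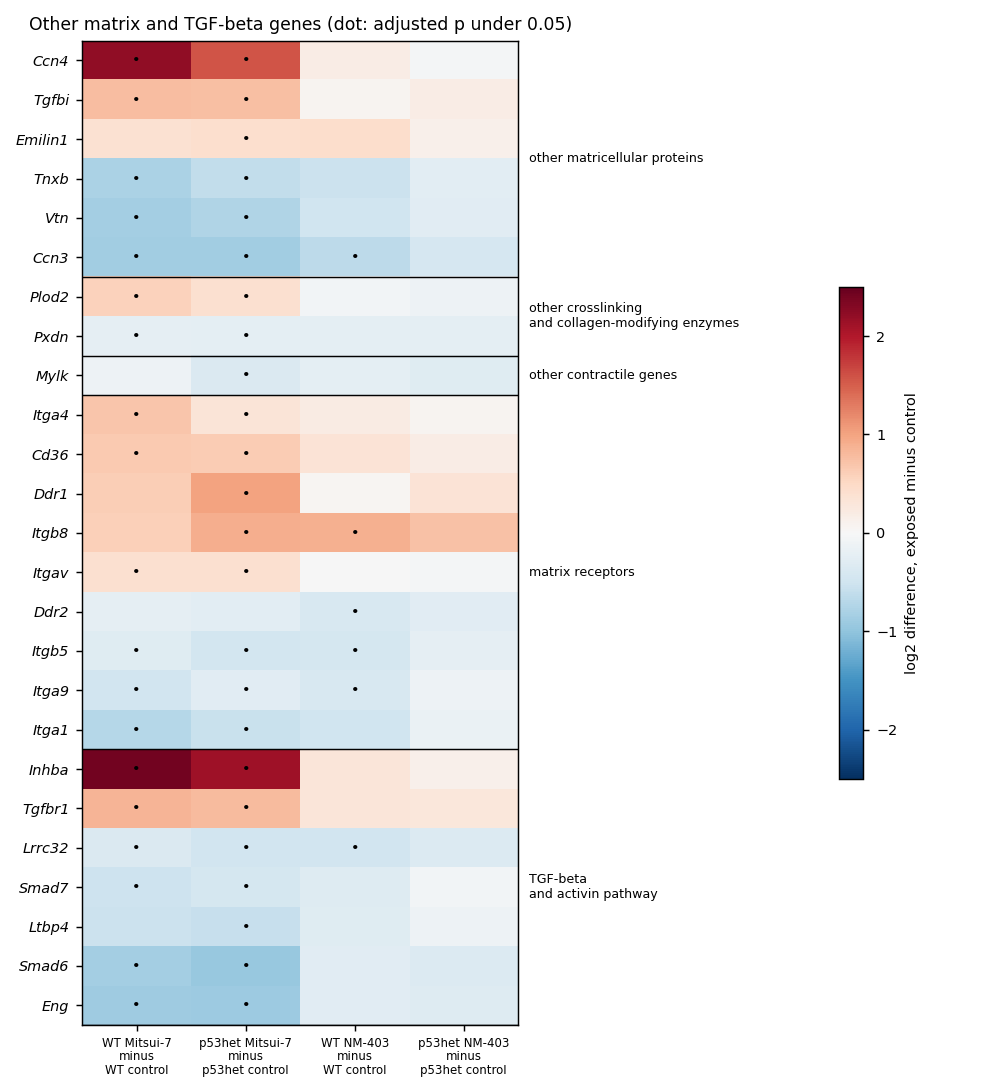
Log2 difference, exposed minus control (colour scale from -2.5 to 2.5), of named genes from the 5 lists of related genes, in the 4 exposure comparisons; a dot marks an adjusted p under 0.05. Inhba and Ccn4 are the reddest with Mitsui-7, and the p53het NM-403 column holds no dots.

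Marker lists were read for 8 kinds of cell that the lobe could hold. Of all genes tested, 8.95% rose and 4.8% fell in WT Mitsui-7 lungs, and 5.16% rose and 6.49% fell in p53het Mitsui-7 lungs. With NM-403, 2.28% rose and 0.854% fell in WT lungs, and 1.28% rose and 0.241% fell in p53het lungs. Of 9 macrophage markers 6 rose in WT Mitsui-7, 4 in p53het Mitsui-7, 3 in WT NM-403 and 0 in p53het NM-403 lungs. Their mean level ran from -2.37 to -1.41 in WT Mitsui-7, from -2.53 to -2.20 in WT NM-403 and from -3.01 to -2.80 in WT control lungs. In p53het lungs it ran from -2.31 to -1.92 with Mitsui-7, from -2.97 to -1.98 with NM-403 and from -2.89 to -2.53 with vehicle. Of 10 fibroblast markers 4 rose and 2 fell in WT Mitsui-7 lungs, with a mean level from -0.09 to 0.14 there and from -0.49 to -0.07 in WT control lungs. In p53het Mitsui-7 lungs 3 rose and 1 fell, with a mean level from -0.29 to 0.04 there and from -0.56 to -0.20 in p53het control lungs. With NM-403, 1 fibroblast marker fell in WT and 1 rose in p53het lungs. Of 8 smooth muscle markers, all of them also among the other contractile genes above, 0 were called in any of the 4 comparisons. Of 8 endothelial markers 5 fell in WT and 6 in p53het Mitsui-7 lungs, and of 7 cardiac muscle markers 4 fell in each. None of either list was called with NM-403. Of 6 mesothelial markers, 1 rose and 3 fell in WT Mitsui-7, 1 rose and 1 fell in p53het Mitsui-7, 4 fell in WT NM-403 and 1 fell in p53het NM-403 lungs. Of 6 platelet markers, 1 rose and 2 fell in each Mitsui-7 group and 0 were called with NM-403. Of 9 alveolar epithelial markers, 2 fell in each Mitsui-7 group and 1 in each NM-403 group. The part of these cells in the changes of Thbs2, Tnn and Fn1 was not tested.

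Across the 35 arrays, the 10 genes varied in their likeness. Thbs2 and Fn1 correlated at r = 0.85 over levels but at 0.05 once group means were removed. Tnc and Loxl2 correlated at 0.80 over levels and at 0.69 within groups. Thbs2 and Tnn correlated at 0.58 over levels and at 0.00 within groups. The genes whose levels were most like Thbs2 were Mt3, Inhba and Noxa1 (r = 0.94, 0.93 and 0.93). For Fn1 they were Clec4a, Steap1 and Mnda (r = 0.92, 0.92 and 0.91). For Tnn they were Pclaf, Ect2 and Chia (r = 0.88, 0.87 and 0.87). They were Col6a1, Atp8b2 and Cass4 for Tnc (r = 0.81, 0.81 and 0.80), Pcolce, Vash1 and Tnc for Loxl2 (r = 0.88, 0.80 and 0.80) and Rnf208, Wfikkn1 and Tbc1d1 for Lox (r = 0.89, 0.88 and 0.86). For the 4 other genes the likeness was weaker: Ism1, Ltbp1 and Hpcal4 for Postn (r = 0.77, 0.73 and 0.73), Upk3b, Zfhx3 and Nf1x for Sparc (r = 0.69, 0.68 and 0.67), Smad3, Gpr157 and Kcnh2 for Acta2 (r = 0.70, 0.68 and 0.68) and Uqcc2, Ap2b1 and Trib1 for Thbs1 (r = 0.69, 0.68 and 0.67). All these correlations share the groups, the arrays and their scaling, and carry no p.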

How the data were processed

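The deposited scanner files hold intensity values per spot, on a linear scale; the submitters' processing notes name Agilent Feature Extraction 12.0.1.1. The deposited matrix holds log2 values for 11545 of the probes used here, at r of 0.994 or more with the scanner values and column medians of -0.083 to 0.069; how they were centred is not known. It holds 6 of the 10 genes and served as an alternative only. All columns were mapped (0 left over), and 0 array pairs were identical. Control spots (4259 of 62976) and 221 to 699 flagged spots per array were left out. Intensities were taken to log2, each array's 75th percentile was subtracted (9.59 to 11.0 before that step), and spots of 1 probe were averaged. A gene was read by the probe of highest mean level. It was tested if 5 or more arrays had it well above background and each group had 3 or more values. Over the 24468 genes, 146 values were missing.

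A mean per group was fitted in R 4.3.3 with limma 3.58.1 and data.table (version 1.17.8), with p adjusted by Benjamini and Hochberg within each comparison. The script was tested on simulated data. Figures were drawn in Python 3.11.15 with pandas 2.3.3 and matplotlib 3.10.9. Earlier results of these data were known when the genes and lists were chosen. The rule named the 10 genes, up to 3 risers and 3 fallers of each list per exposure comparison, and the 3 genes most correlated with each. Some results are not reported here. With nothing stating separate litters, p-values weigh each difference against the spread between these rats only. That spread was pooled over all groups in the fit.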

Additional observations from a re-analysis of the deposited data

Results flagged for a closer look

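Among 60 sets of values (10 genes in 6 groups), 3 held a rat far from the rest of its group, a gap that chance alone gives in about 1 group in 20. Tnn in replicate 1 of the p53het NM-403 rats was lowest, at -7.05, with the nearest of the other 4 rats at -4.33. Tnn in replicate 5 of the WT control rats was lowest, at -8.19, with the nearest at -6.90. Loxl2 in replicate 2 of the WT control rats was highest, at -1.26, with the nearest at -1.58. In both Tnn cases the probe was not well above background in that rat.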

How the results depend on the processing

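Over 12 other settings and 35 fits that each left out 1 rat, no called value changed sign. Of 1044 member values under other settings, 6 lost and 18 gained a call; of 1290 with 1 rat left out, 9 lost and 2 gained one. With 1 rat left out, the number of the 10 genes called stayed at 3 in WT Mitsui-7 and at 2 in WT NM-403 lungs against controls. It was 3 to 4 in p53het Mitsui-7 and stayed at 1 in p53het NM-403 lungs. It was 2 to 4 for Mitsui-7 against NM-403 in WT and 2 to 3 in p53het lungs, and 0 for both interactions and the control comparison. In the authors' processed values, used here for the 6 genes other than Thbs1, Thbs2, Tnc and Tnn, the counts among 6 genes were 1 and 0 (WT Mitsui-7 and NM-403), 2 and 0 (p53het) and 1 and 1 (the nanotubes compared). WT Mitsui-7 gave 5 called with probes averaged, 5 with slide as a random block and 5 with only the groups compared. The groups compared alone gave 1 in WT NM-403 and 0 in p53het NM-403 lungs. The direct comparison gave 5 in WT with slide as a fixed block and 4 in p53het with array weights; the cause was not tested. Replicate numbers did not pair the rats (mean r 0.03 over 85 pairs; 8 of 35 arrays best with their own number). Arrays of different groups on 1 slide did deviate together (mean r 0.24 over 99 pairs, against -0.06 over 411 pairs on other slides), and slide was a block only in the alternatives. With the replicate block, the Lox call in p53het Mitsui-7 lungs was lost (adjusted p = 0.0575), while Loxl2 in WT (0.0344) and Thbs1 in p53het rats (0.0477) were called between nanotubes. Scaling moved the split of all called genes in WT Mitsui-7 lungs: 65.1% were higher, against 49.6% after quantile and 46.3% after median scaling. In p53het Mitsui-7 lungs 44.3% were higher, against 54.8% and 52.7%, and between nanotubes in WT 86.4%, against 73.0% and 70.1%. Of all genes, slide as a fixed block called 5327 in place of 3363 (WT Mitsui-7), 1857 in place of 767 (WT NM-403), 5578 in place of 2851 (p53het Mitsui-7), 942 in place of 372 (p53het NM-403) and 1578 in place of 850 (between nanotubes in WT). Array weights called 1424 with NM-403 in WT, 5270 and 2335 with Mitsui-7 and NM-403 in p53het lungs and 925, in place of 331, between nanotubes in p53het lungs. Leaving out 1 rat gave 447 to 937 genes in WT NM-403 and 231 to 604 in p53het NM-403 lungs; the lowest and highest were without WT NM-403 replicates 6 and 3 and p53het NM-403 replicates 2 and 1. Dim signal limits Tnn, whose controls lay near background.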
